A study of Mus musculus with 6 samples.

Results

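The EphA receptors Epha1 to Epha8 were examined in the cochlear modiolus of mice with and without an earlier noise exposure. Every probe set on the array that was annotated to exactly 1 gene, with that gene being Epha1 to Epha8, was taken, which gave 23 of the 45037 probe sets on the array, or 8 of 18193 genes that it names. Epha4 had 5 of them, Epha3, Epha5 and Epha7 had 4 each, Epha1 had 3, and Epha2, Epha6 and Epha8 had 1 each. No probe set named an EphA receptor together with another gene.

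The modiolus, the central bone of the cochlea, contains the neurons of the spiral ganglion, which link hair cells to the brain, along with glia, vessels and bone cells. All 6 mice were of the CBA/CaJ strain, with the modioli of both ears of a mouse combined and hybridized to 1 array. The noise-exposed group consisted of 3 female littermates that had received noise of 5 to 20 kHz at 110 dB SPL for 5 h at 4 weeks of age, and they were killed 29 days later, aged 57 days. The 3 unexposed mice came from 3 other litters, had stayed in the holding room, and were killed at 53 to 59 days. Unexposed replicate 1 was a male dissected on the same day as the noise-exposed mice, while unexposed replicate 2, a female, and unexposed replicate 3, a male, were dissected on a later day. Litter and exposure therefore cannot be told apart, and day and sex are partly confounded with exposure.

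On each array 24671 to 25371 probe sets exceeded the signal cutoff that the authors drew between background and expression on the log2 scale; it rounds to 4.3, and a value of 4.26 lies above it. The number of arrays limits the precision. Of the 11 markers of spiral ganglion neurons, 10 lay above the cutoff on all 6 arrays, and so did all 7 measured markers of Schwann and satellite glia. Among hair cell markers 4 of 5 lay below it on every array.

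EphA receptors are receptor tyrosine kinases that bind ephrin-A proteins, which are anchored to the membrane of neighbouring cells. Contact usually makes the growth cone of an axon turn away, by way of small GTPases and their exchange factors, and in many tissues it keeps cell populations apart. EphA4 is unusual in that it also binds B-type ephrins, and during development of the mouse cochlea EphA4 on mesenchymal cells helps to bundle the axons of spiral ganglion neurons.

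The first question of the study was which guidance receptors were present in the adult tissue. Transcripts of Epha3, Epha4, Epha5 and Epha7 were detected, with 1 or more probe sets each that exceeded the cutoff on every array. This held for 4 of the 5 probe sets of Epha4, 3 of 4 of Epha5, 2 of 4 of Epha7 and 2 of 4 of Epha3, 11 of 23 in all. Over the whole array 49.7% of probe sets met this criterion, so the family as a whole was detected at about the share of the array. A further 9 of the 23 lay below the cutoff on every array, with values between 2.32 and 3.96, against 37.6% of all probe sets. These were the only probe sets of Epha2, Epha6 and Epha8 and at least 1 of each of the other genes except Epha5. The other 3 lay above the cutoff on 3 to 5 arrays. With a higher cutoff of 5.1, no probe set of Epha3 lay above it on all 6 arrays. A probe set below the cutoff gives no measured level, and it does not show that the transcript is absent.

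**Figure D1:**
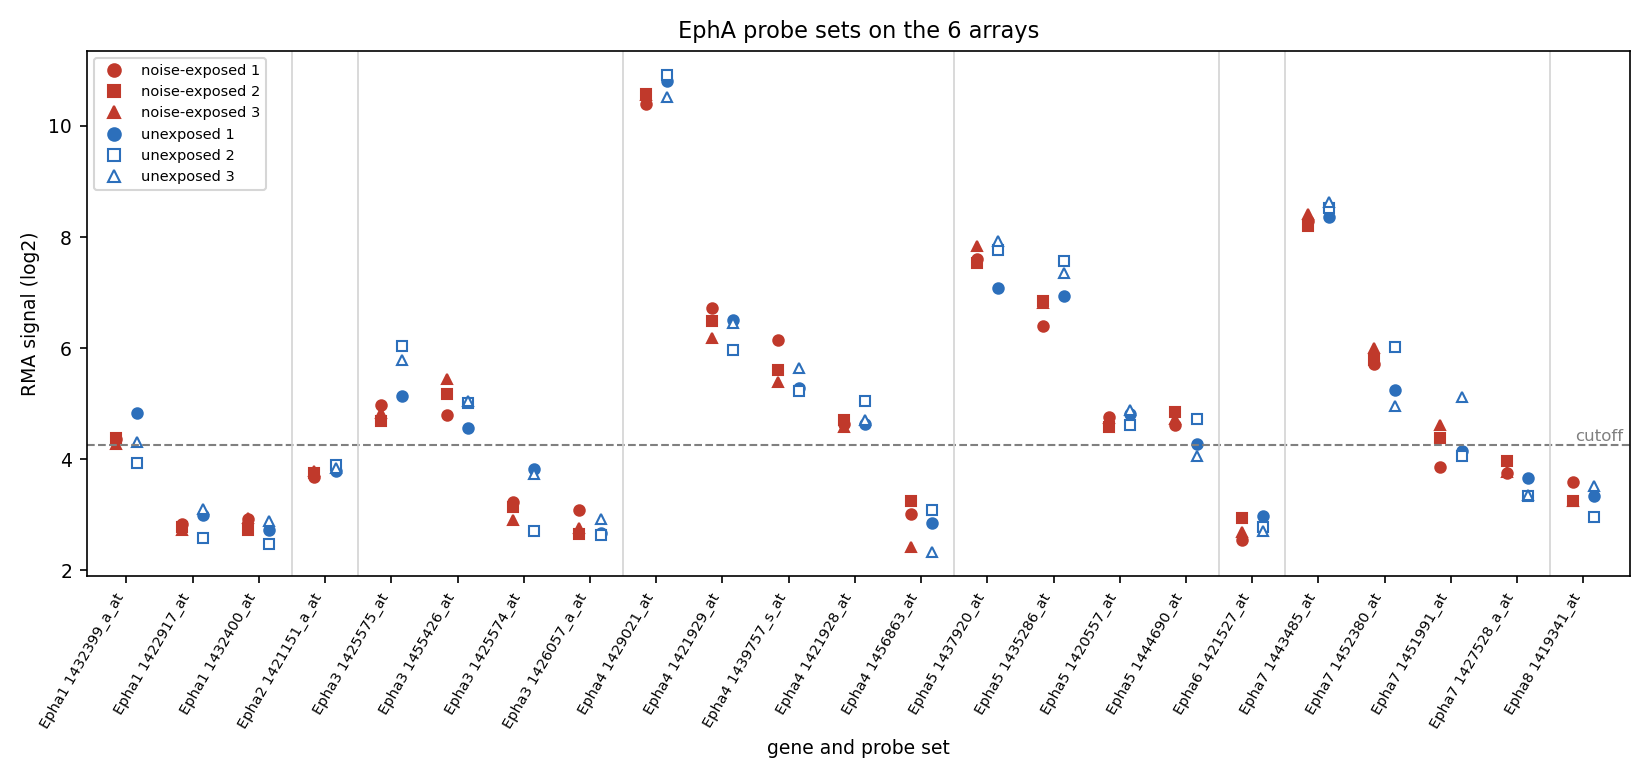
RMA signal (log2) of all 23 EphA probe sets on the 6 arrays, with noise-exposed mice in red, unexposed mice in blue, 1 symbol per replicate and the authors' cutoff as a dashed line. Filled blue circles are unexposed replicate 1, the only unexposed mouse dissected on the same day as the noise-exposed ones; the 9 probe sets below the line lie between 2.32 and 3.96.

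Epha4 had the probe set with the highest signal of the family, 1429021_at. It gave 10.40, 10.58 and 10.56 in the noise-exposed mice and 10.81, 10.92 and 10.51 in the unexposed mice. Its mean of 10.63 ± 0.20 (SD, n = 6) lay at percentile 96.9 of all probe sets on the array, a place that depends on its probes as well as on the transcript. The other probe sets of Epha4 above the cutoff averaged 6.39 ± 0.27 for 1421929_at, 5.55 ± 0.33 for 1439757_s_at and 4.71 ± 0.17 for 1421928_at over the same 6 arrays. Signals of different probe sets of 1 gene thus differed by several log2 units, so the levels were not compared between genes. The fifth, 1456863_at, lay below the cutoff on every array.

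Epha7, a receptor of developing neurons that is also made as truncated forms, had its highest signal on 1443485_at, at 8.40 ± 0.16 (SD, n = 6). Epha5, a receptor for ephrin-A ligands on axons of sensory maps, averaged 7.63 ± 0.31 on 1437920_at and 6.99 ± 0.42 on 1435286_at. Both probe sets lay above the cutoff on all 6 arrays. Epha3 gave 5.24 ± 0.55 on 1425575_at and 5.01 ± 0.31 on 1455426_at. Epha1, a receptor known mainly from epithelia, exceeded the cutoff on 5 of 6 arrays with 1432399_a_at, at 4.34 ± 0.29, and its other probe sets stayed below it.

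The authors also deposited means over these 6 arrays together with arrays of other series, normalized as 1 set, and corrected p-values for lying above a cutoff of 5.1. The authors' deposited table lists 3 of the 23 EphA probe sets with a corrected p under 0.05, against 24.8% of the 1369 receptor probe sets in it. In the authors' deposited table the mean was 6.86 for Epha2 1421151_a_at, with 1.22e-08 as its corrected p, 6.59 for Epha7 1443485_at, with 1.13e-07, and 6.31 for Epha5 1444690_at, with 4.36e-06. EphA2 is best known from epithelia. Epha2 lay below the cutoff used here on each of the 6 arrays, at 3.79 ± 0.07 (SD, n = 6). Epha4 1429021_at had a mean of 6.04 with an SD of 2.51 in the authors' deposited table and a corrected p of 1. Those values were normalized separately from the 6 arrays and carry their own cutoff, so they stand beside the present ones without a test.

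The second question was whether receptor transcripts were higher or lower weeks after noise. No EphA probe set passed the test. Of the 23, 14 lay above the cutoff on at least 3 arrays, as did 56% of all probe sets, and were tested, and 0 had an adjusted p under 0.05 (limma, Benjamini-Hochberg over 25200 probe sets), where the share called over the whole array was 0%. The adjusted p of the 14 ranged from 0.667 to 0.979. At an unadjusted p under 0.05 there were 2, Epha3 1425575_at and Epha5 1435286_at, both lower in noise-exposed mice, while over all tested probe sets 7.07% had such a p, 2.94% lower and 4.13% higher in noise-exposed mice. The log2 fold changes, noise-exposed minus unexposed, lay between -0.82 and 0.42. Of the 14, 6 were above 0 and 8 below, with a median of -0.05. Over all tested probe sets 56.3% were above 0, with a median of 0.04. The median SE was 0.22 for the EphA probe sets and 0.19 for all.

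**Figure D2:**
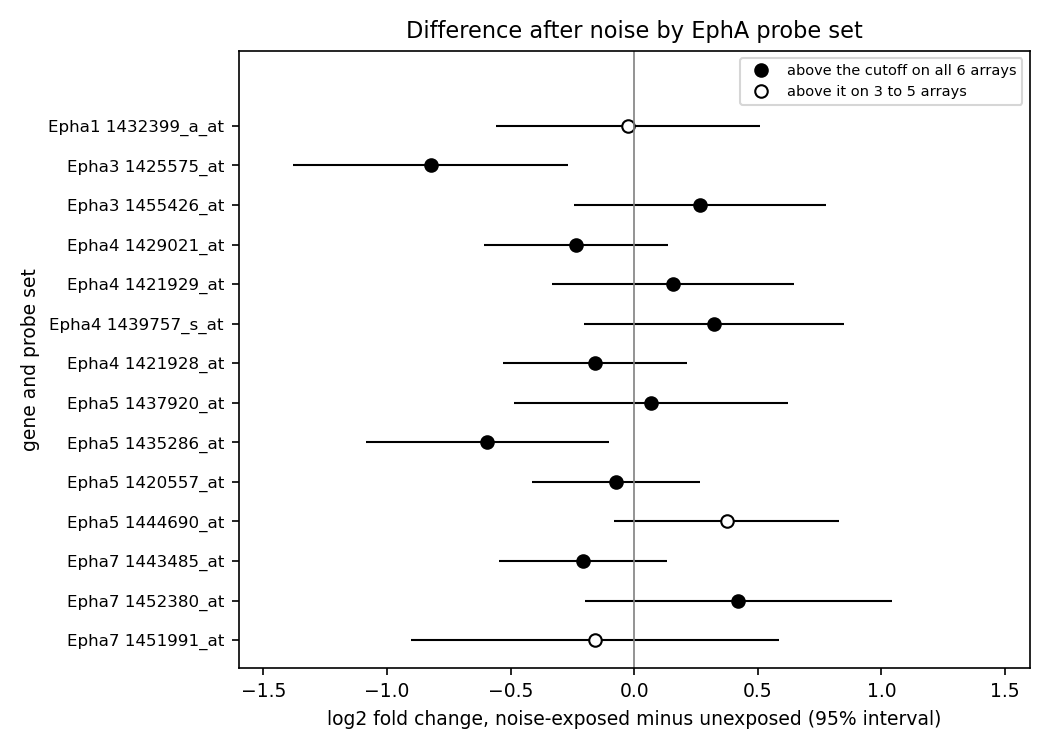
Log2 fold change (noise-exposed minus unexposed) with its 95% interval for the 14 tested EphA probe sets; filled circles lay above the cutoff on all 6 arrays and open circles on 3 to 5. The intervals of Epha3 1425575_at and Epha5 1435286_at end below 0 and the other 12 include it, and no adjusted p is under 0.05.

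Epha3 was lower in every noise-exposed mouse on 1425575_at. The signal was 4.97, 4.68 and 4.83 in the noise-exposed and 5.13, 6.03 and 5.79 in the unexposed mice. The groups did not overlap, and the lowest unexposed value, of replicate 1, lay closest to the noise-exposed mice. The means were 4.82 ± 0.14 and 5.65 ± 0.47 (SD, n = 3 each), which is 1.77-fold lower (log2 fold change -0.82, SE 0.24, 95% interval -1.38 to -0.27), with an adjusted p = 0.667 in limma. In such a mixed tissue, fewer cells of a type and less RNA per cell cannot be told apart.

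The other measured probe set of Epha3 did not show this. With 1455426_at the signal was 4.80, 5.18 and 5.45 in noise-exposed and 4.55, 5.02 and 5.05 in unexposed mice. The groups overlapped, and the log2 fold change was 0.27 (SE 0.22, 95% interval -0.24 to 0.77). Leaving out 1 array gave 0.11 to 0.44, a term for sex gave 0.12, and the day of dissection as a block gave 0.59 (SE 0.28, limma adjusted p = 0.784). Within an array, 1425575_at minus 1455426_at ranged from -0.62 to 0.17 in noise-exposed and from 0.57 to 1.01 in unexposed mice. The log2 fold change thus differed by -1.09 between the probe sets, with p = 0.1 in a two-sided exact permutation test (adjusted p = 0.533 over the 16 pairs of EphA probe sets compared). That p is the smallest that 3 against 3 arrays allow.

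Epha5 gave a similar picture on 1435286_at, with 6.40, 6.85 and 6.82 in the noise-exposed and 6.94, 7.56 and 7.35 in the unexposed mice. Every noise-exposed value lay below every unexposed one, although noise-exposed replicate 2 and unexposed replicate 1 were close. This was 1.51-fold lower, or -0.59 on the log2 scale (SE 0.21, 95% interval -1.09 to -0.10), with an adjusted p = 0.692 in limma.

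The 3 other probe sets of Epha5 had intervals that included 0. On 1437920_at, the one with the highest signal, the values were 7.60, 7.53 and 7.85 in noise-exposed and 7.07, 7.77 and 7.93 in unexposed mice. Here the unexposed mice spanned the noise-exposed ones, and the log2 fold change was 0.07 (SE 0.24, 95% interval -0.49 to 0.62). With the day of dissection as a block it was 0.58, with unexposed replicate 1 alone as the comparison. With sex in the model it was -0.11, with unexposed replicate 2 alone. Without such terms the log2 fold change of 1420557_at was -0.07 (SE 0.15). For 1444690_at, which lay below the cutoff on 1 unexposed array, it was 0.37 (SE 0.20), with 4.72 ± 0.11 in noise-exposed and 4.35 ± 0.34 in unexposed mice (SD, n = 3 each). The within-array difference between 1435286_at and 1437920_at did not overlap between the groups, and neither did that between 1435286_at and 1444690_at (exact permutation p = 0.1 for each, adjusted p = 0.533).

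Over the 4 genes with several tested probe sets, 3 of 16 pairs had within-array differences that did not overlap between the groups, against 11.5% of all such pairs on the array. Those are the pairs just described, 1 of Epha3 and 2 of Epha5. Each holds 1425575_at or 1435286_at, whose own groups did not overlap, so the count is no separate support. Without unexposed replicate 2 there were 6 such pairs and without unexposed replicate 3 there were 5, where the share of all pairs on the array rose as well, to 26% and 22.9%. The fold changes of 11 of the 16 pairs had opposite signs, against 38.5% of all pairs on the array. Pairs that share a probe set are not independent of each other. Probe sets of 1 gene can cover different stretches of its transcripts, and which of them reports the receptor best was not tested.

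**Figure D3:**
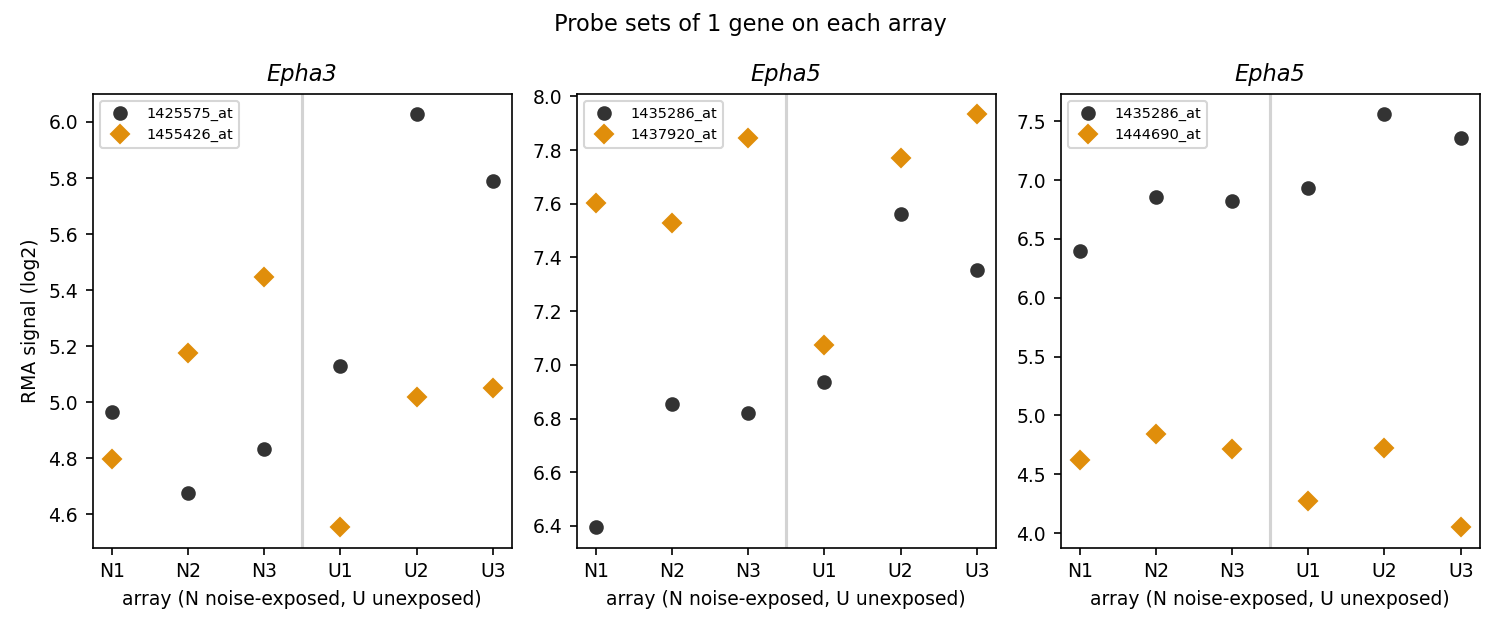
RMA signal (log2) of pairs of probe sets of Epha3 and Epha5 on the noise-exposed arrays (N1 to N3) and the unexposed arrays (U1 to U3). In the Epha3 panel the dark symbols (1425575_at) are higher in the unexposed mice while the orange ones (1455426_at) overlap; each Epha5 panel sets 1435286_at (dark) beside another probe set of the gene.

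For both leading probe sets, the unexposed mice of the later dissection day were the high ones. Epha3 1425575_at was 5.13 in the unexposed mouse of the first day and averaged 5.91 in the 2 of the later day. Epha5 1435286_at was 6.94 against 7.46. With the day as a block, which leaves unexposed replicate 1 alone as the comparison for the noise-exposed mice, the log2 fold change of Epha3 was -0.30 (SE 0.22, limma adjusted p = 0.848) and that of Epha5 -0.25 (SE 0.25, adjusted p = 0.910). Within the first day alone the log2 fold changes were the same, with an adjusted p in limma of 0.655 and 0.780, and in both fits the lone unexposed mouse is assumed to vary like the other mice.

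With sex in the model the differences were larger. There, unexposed replicate 2 alone is the comparison, and the log2 fold change was -1.20 (SE 0.29, limma adjusted p = 0.365) for Epha3 and -0.87 (SE 0.27, adjusted p = 0.399) for Epha5. The RNA input was 21 ng for unexposed replicate 1, 8 ng for each of the other unexposed mice and 10 to 18 ng for the noise-exposed mice. With the input as a covariate the log2 fold changes were -0.72 and -0.53. The size depended on which unexposed mouse was the comparison, while the direction was kept in all alternatives run for these probe sets. As the groups did not overlap, leaving out mice or comparing with an unexposed mouse alone could not turn the direction. That it held there is no support for a difference.

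**Figure D4:**
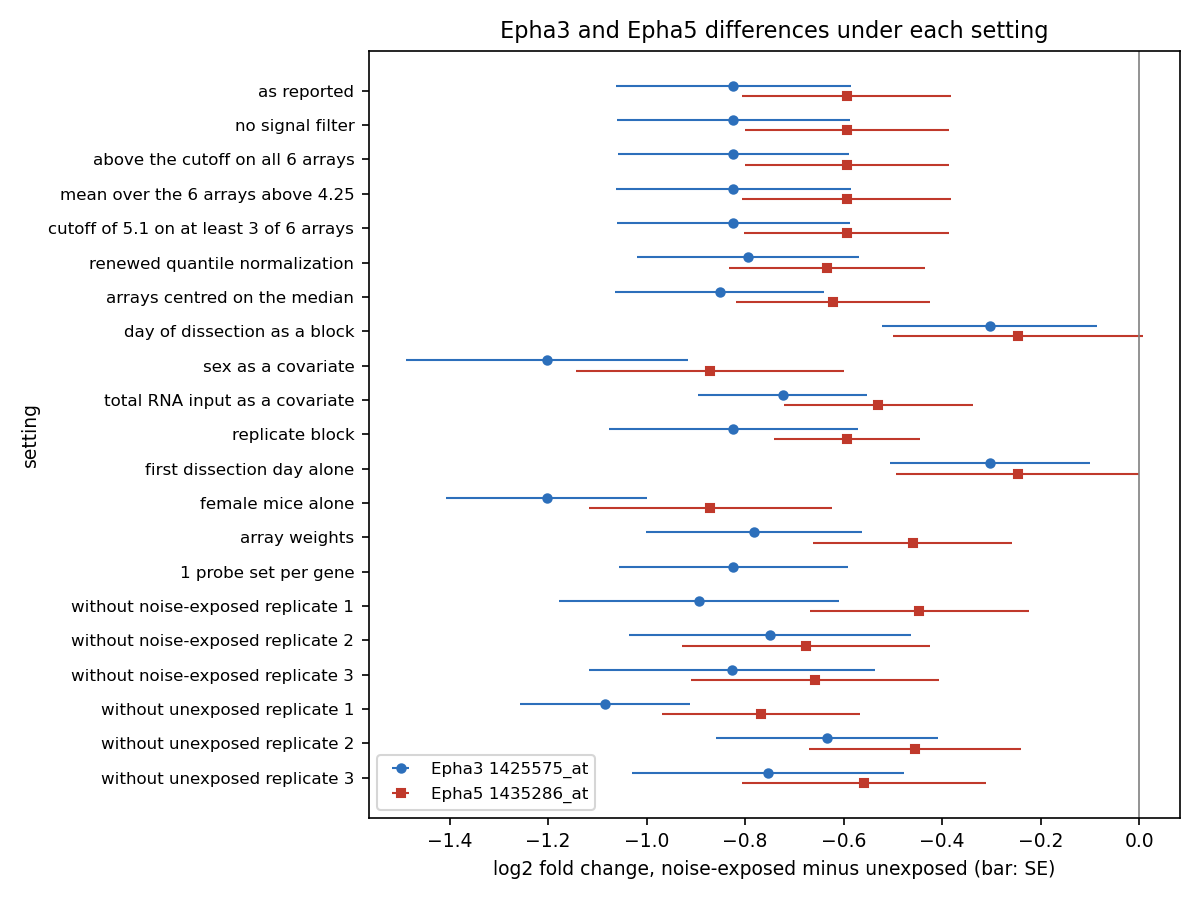
Log2 fold change (noise-exposed minus unexposed, bars show the SE) of Epha3 1425575_at (blue circles) and Epha5 1435286_at (red squares) as reported and under each alternative. All values lie below 0, between -1.20 and -0.30 for Epha3 and between -0.87 and -0.25 for Epha5. The smallest sizes are those with the dissection day taken into account. As the groups did not overlap, leaving out mice or comparing with an unexposed mouse alone could not turn the sign.

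Epha4 and Epha7 showed differences of either sign, none of which passed the test. On 1429021_at the log2 fold change of Epha4 was -0.23 (SE 0.16, 95% interval -0.61 to 0.14, limma adjusted p = 0.754). The groups overlapped, since unexposed replicate 3 lay below 2 of the 3 noise-exposed mice. The other tested probe sets of Epha4 gave 0.16 (1421929_at), 0.32 (1439757_s_at, whose suffix marks probes shared with other transcripts) and -0.16 (1421928_at), with SEs of 0.16 to 0.23. For 1439757_s_at the noise-exposed values were 6.14, 5.60 and 5.39 and the unexposed ones 5.29, 5.23 and 5.64, so that 1 noise-exposed mouse stood above the rest.

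Epha7 gave 8.29, 8.19 and 8.41 in noise-exposed and 8.36, 8.53 and 8.63 in unexposed mice on 1443485_at. The groups overlapped by noise-exposed replicate 3 and unexposed replicate 1, and the log2 fold change was -0.21 (SE 0.15, 95% interval -0.55 to 0.13). On 1452380_at the values were 5.70, 5.78 and 6.01 against 5.25, 6.01 and 4.96, a log2 fold change of 0.42 (SE 0.27), the highest of the family. It was 0.72 without unexposed replicate 2, 0.20 without unexposed replicate 3 and -0.18 with sex in the model. Unexposed replicate 2 lay with the noise-exposed mice there and the other unexposed mice below them. The third tested probe set, 1451991_at, lay above the cutoff on 3 of 6 arrays and gave -0.16 (SE 0.32). Epha1 1432399_a_at gave -0.02 (SE 0.23), with the unexposed mice at 4.84, 3.93 and 4.30 on both sides of the noise-exposed ones, which lay between 4.26 and 4.38. Its log2 fold change was -0.51 with the day as a block and 0.40 with sex in the model. Each of these compares with an unexposed mouse alone.

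Counted over all tested EphA probe sets, 2 of 14 had every noise-exposed value below every unexposed value, and 5.02% of all tested probe sets did. In the other direction there were 0 of 14, against 8.47%. Without unexposed replicate 2 the count in either direction was 5, and without unexposed replicate 3 it was 4, where the whole array gave 29.6% and 23.8%. Both probe sets also passed the ratio of about 1.5 that the authors had required for their own list, as 1.59% of tested probe sets did in this direction. The authors' deposited table of called receptors holds 9 probe sets, all higher after noise, and none is an EphA receptor. Among the probe sets below the cutoff, the groups did not overlap for that of Epha2, lower in noise-exposed mice, and 1 of Epha7 (1427528_a_at), higher. The share among all probe sets below the cutoff was not counted, and no fold is given for either.

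The spread between unexposed mice exceeded that between noise-exposed mice for 12 of the 14 probe sets, as it did for 65.7% of all tested probe sets. Unexposed replicate 2 held the highest value of 5 of the 14 and the lowest of 3. Unexposed replicate 3 held the highest of 4 and the lowest of 2. The residual SD was smallest for Epha7 1443485_at, at 0.12, and largest for Epha7 1451991_at, at 0.50, percentiles 13.8 and 92.7 of all tested probe sets.

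The ligands of these receptors showed no difference that passed the test either. Of 5 ephrin-A genes, Efna1, Efna2 and Efna5 lay above the cutoff on all 6 arrays and Efna3 and Efna4 on none. Efna5 averaged 8.00 ± 0.37 in noise-exposed and 8.04 ± 0.18 in unexposed mice (SD, n = 3 each), with a log2 fold change of -0.04 (SE 0.21). Efna1 was at -0.06 (SE 0.18) and Efna2 at -0.13 (SE 0.28), on the brightest probe set of each. The other tested probe set of Efna2 had a fold change of the opposite sign. Epha10, a further receptor of the A class that lacks a working kinase, gave 4.84, 4.30 and 4.47 in noise-exposed and 4.21, 3.80 and 4.32 in unexposed mice. It lay above the cutoff on all 3 noise-exposed arrays but on only 1 unexposed array, so no fold is given, and the groups overlapped.

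Among EphB receptors and B-type ephrins, the median log2 fold change was 0.15, with 6 of 7 genes above 0 and 0 called. Over the whole array, the median with 1 probe set per gene was 0.07. Of all tested probe sets with 1 gene symbol, 60% were above 0. Ephb6, which lacks kinase activity, was at 0.23, Efnb3 at 0.22 and Ephb3 at 0.15, while Efnb2, a ligand that EphA4 also binds, was at -0.16 (SE 0.17). Of the genes that carry the signal inside the cell, 25 of 28 were measured, 14 above 0 and 11 below, with 0 called and a median of 0.01. The lowest unadjusted p values there belonged to Inppl1 at 0.30 (SE 0.13), a lipid phosphatase that binds EphA2, Ptpn11 at 0.29 (SE 0.14), a tyrosine phosphatase, Arhgef1 at 0.46 (SE 0.30), an exchange factor for small GTPases, and Grb10 at -0.23 (SE 0.18), an adaptor. Their adjusted p in limma ranged from 0.704 to 0.770. The groups did not overlap for Inppl1 and Ptpn11, both higher in noise-exposed mice, and overlapped for Arhgef1 and Grb10. Of the 3 tested probe sets of Ptpn11, 1 had a fold change of the opposite sign. Over the whole list, groups did not overlap for 2 genes higher in noise-exposed mice and 1 lower. The shares of all tested probe sets were 8.47% and 5.02%.

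Of the genes that cleave, internalize or dephosphorylate Eph receptors and ephrins, 9 of 10 were measured, 6 above 0 and 3 below, and 0 were called. Adam10, the protease that cuts ephrin-A proteins from the cell surface, averaged 11.24 ± 0.03 in noise-exposed and 11.40 ± 0.08 in unexposed mice (SD, n = 3 each). Its groups did not overlap, lower in noise-exposed mice, and the log2 fold change was -0.15 (SE 0.13). In the same list 1 gene had groups that did not overlap in the other direction. Over all tested probe sets 5.02% were separated lower and 8.47% higher in noise-exposed mice. Lin7a was at 0.24, Ptpn1, a phosphatase, at 0.23 and Pick1, a scaffold that binds Eph receptors, at -0.15. For Lin7a, 1 of 3 tested probe sets had the opposite sign. The partners of ephrin-A on axons, Ngfr, Ntrk2 and Ret, lay between 0.01 and 0.09. For Ntrk2, 1 of 6 tested probe sets had the opposite sign.

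The genes nearest to Epha3 1425575_at in their values over the 6 arrays were Stc1, Zmym4 and Ppp1r10. Nearness was the root mean square difference after each probe set had been centred on its own mean, and it was 0.12, 0.14 and 0.15 (log2) for these genes, where the median of 11860 genes was 0.55. Stc1 averaged 3.98 in noise-exposed mice, below the cutoff, and 4.83 in unexposed mice. For Epha4 1429021_at the nearest were Dnajb14, Ptp4a2 and Pdzd11, at 0.04 to 0.05, against a median of 0.28. With 6 arrays and so many genes some profiles lie close in any case.

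Markers of the cell types in the tissue were compared beside these values. Over all tested probe sets 8.47% were separated higher and 5.02% lower in noise-exposed mice. Of those with 1 gene symbol, 60% had a log2 fold change above 0. The mean log2 signal of 7 measured Schwann and satellite glial markers was 10.58 to 10.63 in noise-exposed and 10.36 to 10.47 in unexposed mice, with 5 of 7 above 0. For 5 fibroblast and matrix markers it was 8.10 to 8.28 against 7.76 to 8.08, with 5 of 5 above 0, and for 5 supporting cell markers 8.36 to 8.44 against 8.18 to 8.34. For 5 central glial markers it was 8.76 to 9.22 against 8.16 to 8.97, with 5 of 5 above 0, and for 4 macrophage markers 5.88 to 6.03 against 5.43 to 6.01. The 10 neuronal markers gave 9.77 to 9.97 against 9.79 to 9.87. Markers of osteoblasts, at 7.98 to 8.50 against 7.87 to 8.29, and of vessels, at 6.99 to 7.08 against 6.80 to 7.21, overlapped too. The excess of the 3' over the 5' control probe sets of beta-actin was 2.04 to 2.28 against 1.93 to 2.08. Their part in the EphA values was not tested.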

How the data were processed

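Messenger RNA of 6 mice was measured on Affymetrix mouse genome arrays; the labels gave the group and the number of each mouse. The authors deposited log2 signals, 1 per probe set, made by robust multi-array averaging (RMA) of the 6 arrays in R 2.6.1 with Bioconductor 2.1, per their deposited code. Quantile normalization within RMA hides a shift of most transcripts in 1 direction. The authors' deposited list of called receptors gives a fold ratio per probe set, and a further deposited table gives a mean log2 signal and a Bonferroni-corrected p-value against 5.1. A table headed by group codes, with 6 columns, was not used. A separate deposited table of receptor signals on each array, not the table of means, held all 23 EphA probe sets, within 5e-06 of the values used.

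Of 45101 probe sets, 64 controls were left out; 34945 had 1 gene symbol, 932 several and 9160 none. Names came from the platform annotation, updated by Entrez ID. The arrays name no genome build, so no coordinates are given. Probe sets above the authors' signal cutoff on at least 3 of 6 arrays were tested in R 4.3.3 by the moderated linear model of limma 3.58.1, with two-sided p adjusted by Benjamini-Hochberg at a threshold of 0.05; the fit was checked on simulated data. The members and gene lists were chosen with earlier results of these data known. Named genes were all EphA and ephrin-A genes, Epha10, up to 4 genes of each other list by unadjusted p, and the 3 nearest profiles of Epha4 and of the EphA gene with the largest change; lists used the brightest tested probe set of a gene. Pairs of probe sets were compared by exact permutation. Alternatives covered the filter, normalization, day, sex, RNA input, replicate block, array weights and each array left out. Rock2, Ptk2, Ephb2, Bglap, Runx2 and Hbb-b1 were not analysed here, some other listed genes are not reported here, and no red cell marker lay above the cutoff.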

Additional observations from a re-analysis of the deposited data

How the results depend on the processing

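No EphA probe set and no companion gene passed the test under any of the 20 alternatives run, although limma called 15 other probe sets without unexposed replicate 2 and 3 with the first day alone. With a cutoff of 5.1, 6 EphA probe sets lay above it on all 6 arrays, against 11. Those of Epha3 were not among them. Epha3 1425575_at lay at 4.68 to 4.97 in the noise-exposed mice, and 1455426_at was at 4.55 in unexposed replicate 1. Leaving out 1 array at a time, an alternative added after the data were seen, gave 2 to 5 probe sets with separated groups, with 5 without unexposed replicate 2 and 4 without unexposed replicate 3. It gave 3 to 6 pairs of probe sets that differed without overlap, with 6 and 5 for the same 2 arrays, where 18.6% to 26% of all pairs on the array did so, against 11.5% with every array. Signs turned for 8 probe sets, none of them called, and the cause was not tested. With sex in the model, or in females alone, the log2 fold change was 0.40 for Epha1 1432399_a_at, -0.11 for Epha5 1437920_at, 0.084 for 1420557_at, -0.00038 for 1444690_at, -0.18 for Epha7 1452380_at and 0.23 for 1451991_at. With the day as a block, or the first day alone, it was -0.043 for Epha4 1421929_at, 0.0093 for 1421928_at and 0.14 for Epha7 1451991_at. With 1 array left out, Epha1 1432399_a_at ranged from -0.24 to 0.22, Epha4 1421929_at from -0.014 to 0.30, Epha5 1437920_at from -0.19 to 0.24 and Epha7 1451991_at from -0.35 to 0.18. The replicate block gave 0 calls; the numbers do not pair the mice, since deviations of same-numbered mice correlated at 0.09, 0.03 and -0.04, and 0 of 6 arrays correlated best with the array of their own number.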
